A study of Mus musculus with 32 samples.

Results

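Medulloblastoma, a malignant tumor of the cerebellum, is divided in patients into WNT, SHH, Group 3 and Group 4 subgroups, and small sets of marker genes assign a human tumor to its subgroup. The 10 genes described here are the mouse orthologs of such classifier genes that were chosen by name from a fixed list. Gabra5, Impg2, Npr3 and Mab21l2 are 4 that mark human Group 3, and Kcna1, Eomes, Khdrbs2, Rbm24, Unc5d and Lmx1a are 6 that mark human Group 4. All 10 were found by Ensembl identifier among the 37310 genes of the tumor count table. The rule uses gene names and no expression value.

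RNA from fresh-frozen mouse brain tumor biopsies was sequenced in bulk on an Ion Torrent platform in 6 GMYC and 8 GTML tumors. GMYC tumors carried the doubly hemizygous Glt1-tTA/TRE-MYC transgenes, in which a tetracycline-controlled activator expressed from the promoter of the glutamate transporter gene Glt1 drives MYC unless doxycycline is given. GTML tumors carried the matching Tet-OFF model, in which the same promoter directs MYCN. Both models therefore share the promoter and the activator and differ by design in the oncogene, and neither set holds a normal cerebellum or a human tumor. According to the paper, the GMYC tumors were compared with GTML sequences from earlier work and with new GTML tumors. The labels do not say which tumors were sequenced together, so the oncogene and the sequencing occasion cannot be told apart here. The transgene is active in GLT1+ cells, so the models show tumors that start where this promoter is on. The ages of the mice, and whether each biopsy came from a different mouse, are not given in the labels, so p-values measure the spread between these 14 samples.

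Group 3 tumors in patients are known for high MYC and for a set of photoreceptor genes, and Group 4 tumors for genes of the glutamatergic lineages of the upper rhombic lip, including unipolar brush cells. Eomes and Lmx1a encode transcription factors of that lineage. Impg2 encodes a proteoglycan of the matrix around photoreceptors, and Gabra5 encodes the alpha 5 subunit of the GABA-A receptor. The question put to these data was how far the markers of either human subgroup are expressed in tumors driven by MYC and in tumors driven by MYCN.

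Library depth was 6218378 to 7279811 counts in GMYC and 4602294 to 6317404 in GTML tumors. The oncogenes followed the labels, with Myc at 33.4 to 166 CPM (counts scaled to a common library size) in GMYC against 2.60 to 8.68 in GTML tumors, and Mycn at 7.65 to 34.4 against 119 to 191. These are counts of the mouse genes, while the paper describes the GMYC transgene as human MYC. The share of transgene reads in them was not tested. Otx2, a transcription factor of Group 3 and Group 4 tumors, stood at 237 to 378 CPM in all 14 tumors, and the neuronal medulloblastoma markers summed to 870 to 1108 CPM in GMYC and 876 to 1102 in GTML tumors. GTML 2 stood apart. Its median Spearman correlation with the other GTML tumors over all tested genes was 0.91, while that of the other 7 was between 0.932 and 0.955. GTML 2 was the highest of the 14 tumors in 13.4% and the lowest in 11.2% of tested genes. Its median correlation with the GMYC tumors was 0.929, and it was the only tumor that correlated more with the other model than with its own. Some comparisons of the study used fewer GTML tumors than the labels list. The paper describes an outlier GTML tumor that clustered with SHH tumors, and it compared the 7 GTML tumors classified as Group 3. The labels do not name the tumor left out, so whether it is GTML 2 is not given. Member results are therefore given with all 8 GTML tumors and again without GTML 2, and list results without it where the calls change. Reads of small nucleolar RNAs also split the libraries into a higher side, with 4 GMYC and 2 GTML tumors at 0.366 to 0.438% of counts, and a lower side, with 2 GMYC and 6 GTML tumors at 0.151 to 0.272%. Counts of the Y-linked genes Ddx3y, Eif2s3y, Kdm5d and Uty were uneven between the models, at 2115 to 3378 in the GMYC tumors but 4 to 16 in GTML 2, 3, 5 and 8 and 1102 to 2220 in the other 4 GTML tumors. In bulk RNA, fewer cells of a type and less RNA per cell cannot be told apart.

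The members were expressed at very different levels. On the RPKM scale, CPM divided by exon length in kilobases, the median over 14 tumors was 48.9 for Impg2, 16.1 for Kcna1 and 7.73 for Gabra5. A middle set followed with Mab21l2 at 2.49, Rbm24 at 2.44, Unc5d at 2.09 and Npr3 at 1.48 RPKM. Khdrbs2 at 0.41, Lmx1a at 0.173 and Eomes at 0.0453 RPKM were lowest. The ranges of every pair of neighbours in this order overlapped over the 14 tumors, so the medians give the order and the tumors do not all follow it. Impg2 was nevertheless the member with the highest RPKM in 13 of 14 tumors. The exception was GTML 2, where Kcna1 led with 22.4 RPKM, followed by Npr3 with 18.7 and Impg2 with 11.6.

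**Figure D1:**
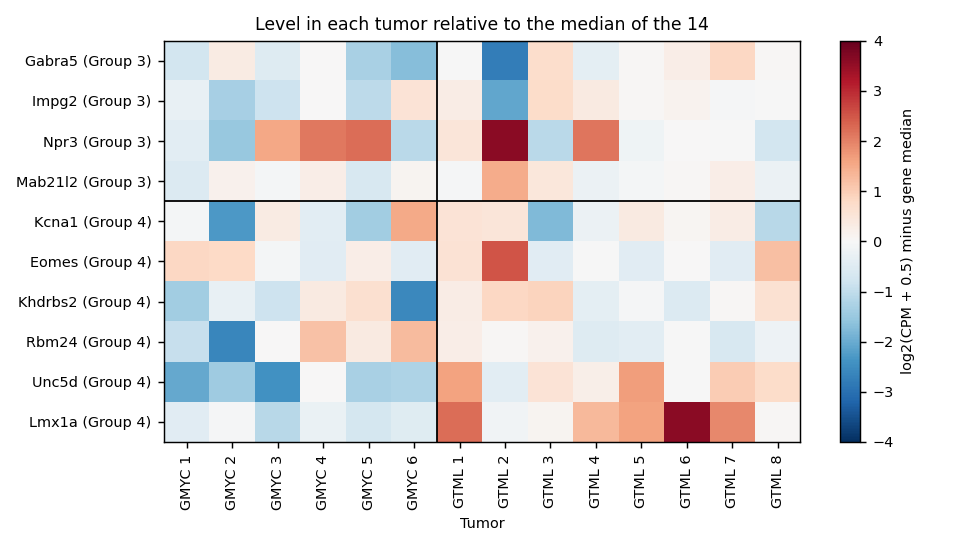
Expression of the 10 members in the 14 tumors, drawn as log2 of CPM plus a small constant, minus the gene's own median over all tumors. Group 3 genes are above Group 4 genes, and GMYC tumors are left of GTML tumors. Unc5d and Lmx1a are higher on the GTML side, and the GTML 2 column differs from its neighbours, with Gabra5 and Impg2 low and Npr3, Mab21l2 and Eomes high.

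Across all genes, 676 of 21024 tested genes, or 3.22%, passed an adjusted p under 0.01 with at least a 2-fold difference between the models (edgeR quasi-likelihood test, Benjamini-Hochberg adjusted), 2.11% higher in GTML and 1.1% higher in GMYC tumors. At these thresholds 1 of the 9 members tested, Unc5d, was called, and it was higher in GTML tumors. At an adjusted p under 0.05 alone, 2 members passed, Unc5d and Lmx1a, both higher in GTML tumors, where the shares of all genes are 11.5% higher in GTML and 9.71% higher in GMYC tumors. None of the 4 Group 3 members was called by edgeR, limma-voom or DESeq2, and none had an unadjusted p under 0.05 in any of these, a level that 37.8% of all genes reached in edgeR. Fitted fold changes were positive, that is, higher in GTML, for 7 and negative for 2 of the 9 tested members, with a median log2 fold change of 0.43 beside 0.04 for all genes. The ranges of GMYC and GTML tumors overlapped for all 10 members, against 2.14% of genes whose GTML tumors all lay above the GMYC tumors and 2.48% with the opposite order.

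Without GTML 2, Unc5d and Lmx1a were both called and were the 2 members with an adjusted p under 0.05 (30.7% of all genes), beside 7.76% of the 20936 genes then tested and 4.96% called higher in GTML tumors, and the median log2 fold change of the 9 members was 0.58. The fitted value was then positive for 6 and negative for 3 of them. Group 3 members remained uncalled in that comparison, in which 2 of the 4 had an unadjusted p under 0.05, as did 43.8% of all genes.

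**Figure D2:**
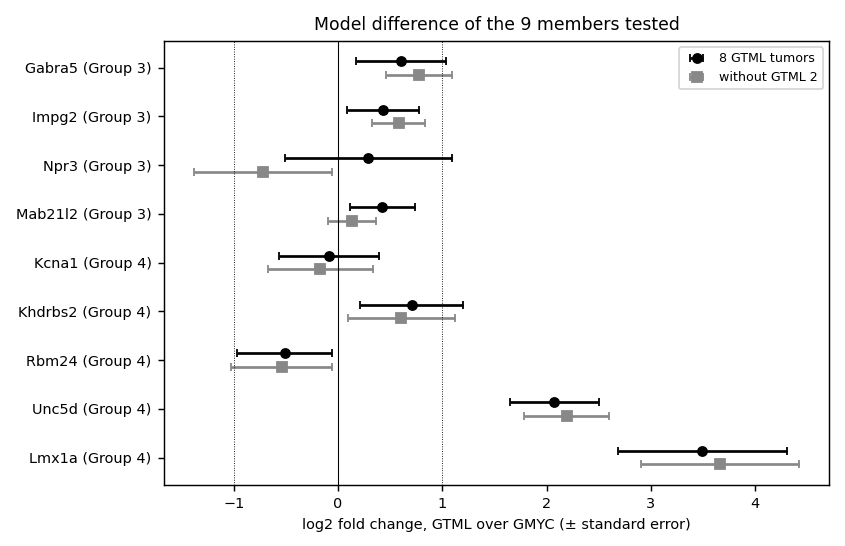
Log2 fold change of GTML over GMYC tumors with its standard error for the 9 tested members, from all 8 GTML tumors and from the 7 without GTML 2. Unc5d at 2.08 and Lmx1a at 3.49 lie apart from the others, and Npr3 changes sign from 0.29 to -0.72 when GTML 2 is left out.

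Unc5d, a receptor for netrins that guides axons and migrating neurons, was the member with the smallest adjusted p. It measured 4.31, 6.90, 3.21, 19.4, 7.57 and 7.92 CPM in GMYC tumors 1 to 6. In GTML tumors 1 to 8 it measured 59.4, 14.2, 28.3, 22.6, 62.9, 19.2, 39.4 and 32.3 CPM. Every GTML tumor exceeded the GMYC median, 6 of the 8 exceeded every GMYC tumor, and the overlap came from GMYC 4, since 8 of 8 exceeded the remaining 5 GMYC tumors. The mean was 8.22 ± 5.79 CPM (SD, n = 6) in GMYC and 34.8 ± 18.1 CPM (SD, n = 8) in GTML tumors, and the fitted log2 fold change was 2.08 ± 0.43 (SE), a 4.21-fold difference (edgeR adjusted p = 0.00676). Without GTML 2 it was 2.19 ± 0.41 (edgeR adjusted p = 0.00266). The fold was similar within both sides of the small nucleolar RNA split, at a log2 value of 2.13 (edgeR adjusted p = 0.352) in the 6 tumors of the higher side and 2.12 (edgeR adjusted p = 0.0249) in the 8 of the lower side, but neither subset passed 0.01. The call at 0.01 was also lost when GMYC 1, 2, 3, 5 or 6 or GTML 5, 7 or 8 was left out, with adjusted p up to 0.0189 in edgeR and a log2 fold change of at least 1.90. With a term for the Y-linked counts, added after the data were seen, the log2 value was 2.09 and the call was also lost (edgeR adjusted p = 0.0216).

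Lmx1a, a LIM homeobox factor of the roof plate and upper rhombic lip, had the largest fold of the members at a low level. Counts were 2, 4, 0, 3, 1 and 2 in GMYC tumors 1 to 6 and 26, 3, 4, 12, 13, 66, 19 and 4 in GTML tumors 1 to 8. In CPM these came to 0 to 0.563 with a median of 0.285 in GMYC and 0.488 to 12.8 with a median of 2.50 in GTML tumors. Of the GTML tumors, 7 of 8 exceeded every GMYC tumor in CPM, GTML 2 being the one that did not, and GTML 6 was the highest. GTML 3 and GTML 8 held 4 counts each, as did GMYC 2, so they exceeded GMYC 2 by library scaling alone. The log2 fold change was 3.49 ± 0.81 (SE), an 11.3-fold difference, with an edgeR adjusted p of 0.0102, just outside the 0.01 threshold. Without GTML 2 it was 3.66 ± 0.76 (edgeR adjusted p = 0.00435), and it also passed without GTML 3 or GTML 8, while without GTML 6 it was 2.80 (edgeR adjusted p = 0.0159). With the Y-linked term it was 4.24 and passed (edgeR adjusted p = 0.00713). Within the lower side of the small nucleolar RNA split it was 3.92 (edgeR adjusted p = 0.0822), and too few counts remained to test it within the higher side. The GMYC sum of 12 counts over 6 libraries sets the precision of the lower level.

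Eomes, the T-box factor of unipolar brush cells and intermediate progenitors, was at the limit of detection. Its counts were 5, 5, 1, 0, 2 and 0 in GMYC tumors and 3, 21, 0, 1, 0, 1, 0 and 7 in GTML tumors. Of the 33 GTML counts 21 came from GTML 2, and 5 of the 14 libraries held none, where 3 counts are the limit that a count of 0 allows. Too few tumors passed the 1 CPM filter, and in the fit without that filter the log2 fold change was 1.08 (edgeR adjusted p = 0.435), so a difference between the models was not detectable at this depth.

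The other Group 4 members showed no called difference. Khdrbs2, an RNA-binding splicing regulator of neurons, ranged from 0.283 to 6.92 CPM with a median of 2.76 in GMYC and from 2.72 to 8.32 with a median of 4.81 in GTML tumors. Here 7 of 8 GTML tumors exceeded the GMYC median, but the log2 fold change of 0.70 ± 0.50 (SE) did not pass (edgeR adjusted p = 0.307). Kcna1, the Kv1.1 potassium channel, ranged from 15.2 to 219 CPM with a median of 65.3 in GMYC and from 22.5 to 112 with a median of 87.9 in GTML tumors. GMYC 6 was the highest and GMYC 2 the lowest of all 14, so the GTML range lay inside the GMYC range, and the log2 fold change was -0.09 ± 0.48 (SE, edgeR adjusted p = 0.911). Rbm24, an RNA-binding splicing factor known best from muscle, likewise varied more in GMYC tumors, where the highest value was 21.5 times the lowest, than in GTML tumors, where it was 1.97 times. It measured 4.31, 0.985, 8.72, 19.95, 11.1 and 21.2 CPM in GMYC tumors 1 to 6 and lay between 5.28 and 10.4 CPM in GTML tumors (log2 fold change -0.51 ± 0.46 SE, edgeR adjusted p = 0.425). The difference in spread itself was not tested.

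**Figure D3:**
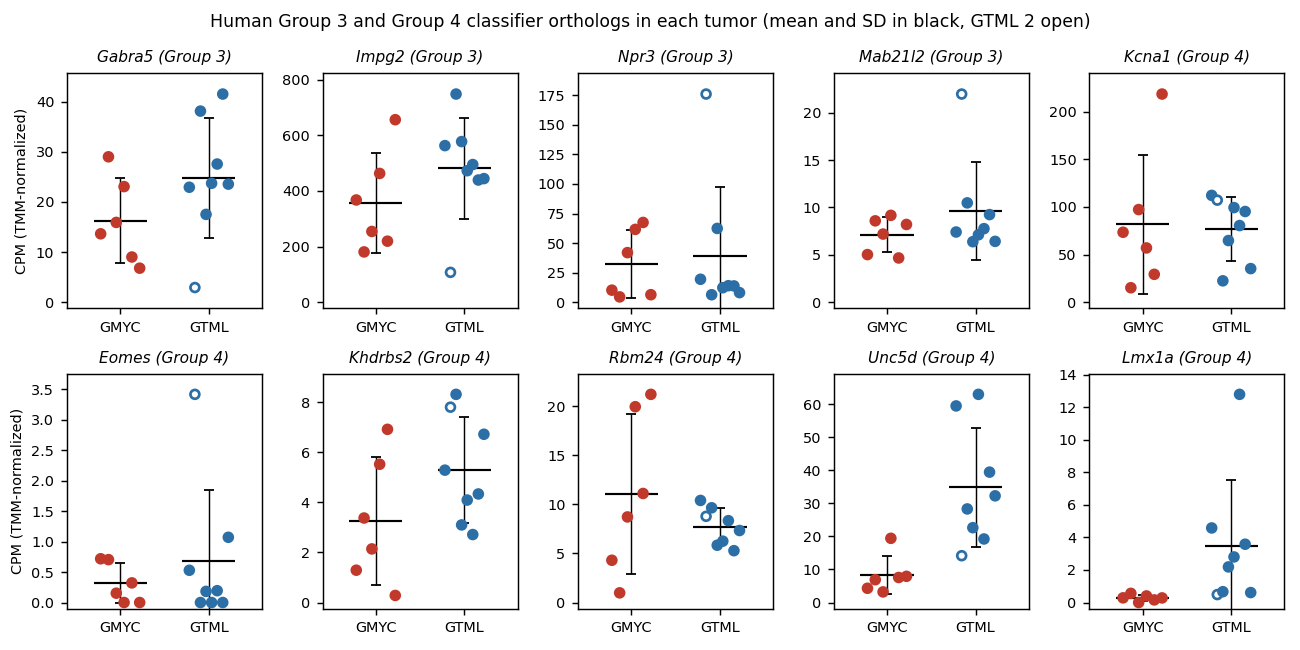
CPM of each member in every tumor on linear axes that differ between panels, with points for tumors, an open circle for GTML 2 and the mean ± SD of each model, whose bars are cut where they pass below the axis. Unc5d separates the models except for GMYC 4, and GTML 2 is the highest point for Npr3, Mab21l2 and Eomes and the lowest for Gabra5 and Impg2.

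Among the Group 3 members, Impg2 and Gabra5 were both lowest in GTML 2. Impg2 measured 368, 181, 254, 463, 220 and 656 CPM in GMYC tumors 1 to 6 and 563, 107, 748, 578, 473, 495, 439 and 444 CPM in GTML tumors 1 to 8. Thus 7 of 8 GTML tumors lay above the GMYC median of 311 CPM and GTML 2 lay below every GMYC tumor. The log2 fold change was 0.43 ± 0.34 (SE, edgeR adjusted p = 0.368) and 0.58 ± 0.26 without GTML 2 (edgeR adjusted p = 0.0929). Gabra5 measured 13.6, 29.0, 15.9, 23.1, 9.01 and 6.79 CPM in GMYC tumors and 22.9, 2.93, 38.1, 17.5, 23.7, 27.6, 41.5 and 23.5 CPM in GTML tumors. The same picture held, with 7 of 8 GTML tumors above the GMYC median and GTML 2 at 0.123 times the median of the other GTML tumors. Its log2 fold change was 0.60 ± 0.44 (SE, edgeR adjusted p = 0.317) and 0.78 ± 0.32 without GTML 2 (edgeR adjusted p = 0.0745). Within the lower side of the small nucleolar RNA split the Gabra5 value was 1.84 (edgeR adjusted p = 0.0213) and within the higher side -0.65, so its direction was not the same on both sides. GTML 1 and GTML 2 were the only GTML tumors of the higher side, at 22.9 and 2.93 CPM, so that value includes the low GTML 2. The difference between the sides was not tested.

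The other pair of Group 3 members was highest in GTML 2. Npr3, the clearance receptor for natriuretic peptides, measured 10.2, 4.50, 41.9, 61.6, 67.4 and 6.36 CPM in GMYC tumors and 19.4, 176, 6.32, 62.4, 12.3, 14.0, 13.8 and 8.10 CPM in GTML tumors. High and low tumors occurred in both models, with the highest value 15 times the lowest in GMYC and 27.8 times in GTML tumors. The log2 fold change was 0.29 ± 0.80 (SE, edgeR adjusted p = 0.814) with all tumors and -0.72 ± 0.66 (edgeR adjusted p = 0.42) without GTML 2, so this 1 library set its sign. Mab21l2, a gene of eye and midbrain development, ranged from 4.67 to 9.17 CPM with a median of 7.70 in GMYC and from 6.38 to 21.96 with a median of 7.58 in GTML tumors. It was the member that varied least, GTML 2 apart, since the next GTML tumor stood at 10.5 CPM (log2 fold change 0.43 ± 0.31 SE, edgeR adjusted p = 0.32, and 0.13 ± 0.23 without GTML 2, edgeR adjusted p = 0.685). In GRCm38 annotation 36.0% of the exon bases of Mab21l2 are shared with Lrba on the opposite strand, and whether strand was used in counting is not given in the sources used here, so reads of these genes may not be told apart.

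Markers of other cells in GTML 2 are given beside these values. Its summed level was the lowest of the 14 tumors for granule neuron markers at 91.9 CPM and for mature neuron markers at 238 CPM. The same held for the other Group 3 genes at 357 CPM. The choroid plexus sum of 279 CPM was also the lowest, but Otx2, which is among the other Group 3 genes too, made 237 CPM of it. That sum therefore mostly follows Otx2 and does not give the level of the other choroid plexus genes. The GABA-A receptor subunits other than Gabra5 also had their lowest sum in GTML 2, at 257 CPM. It was second highest for meningeal markers at 882 CPM, in a range of 36.6 to 1039 over the GTML tumors, and for Purkinje cell markers at 337 CPM. The part of these in the GTML 2 levels of Npr3, Mab21l2, Eomes, Gabra5 and Impg2 was not tested.

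The promoter sequences of Impg2 and Gabra5 are shown because these Group 3 members shared their lowest level in GTML 2. They are the 250 bases before the RefSeq transcription start in GRCm38.p6, printed 5′ to 3′ on the strand of the gene, with a TAATTA homeodomain core in capitals.
Impg2, chr16:56204063-56204312, plus strand: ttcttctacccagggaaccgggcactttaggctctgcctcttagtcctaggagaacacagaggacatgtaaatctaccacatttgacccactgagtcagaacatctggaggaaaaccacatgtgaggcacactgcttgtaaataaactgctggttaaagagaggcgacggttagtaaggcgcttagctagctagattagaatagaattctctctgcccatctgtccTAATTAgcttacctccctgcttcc
Gabra5, chr7:57510060-57510309, minus strand: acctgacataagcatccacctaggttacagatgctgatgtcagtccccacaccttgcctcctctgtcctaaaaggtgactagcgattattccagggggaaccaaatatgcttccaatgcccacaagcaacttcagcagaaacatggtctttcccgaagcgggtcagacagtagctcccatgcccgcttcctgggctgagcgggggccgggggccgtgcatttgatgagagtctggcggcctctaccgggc
The TAATTA run in Impg2 begins 24 bases before the start. The 3 motifs searched on both strands were TAATCC, the core bound by OTX2 and CRX, TAATTA, and the E-box CACGTG, which MYC and MYCN bind, and TAATTA was added after the sequences were seen. Over the 32851 promoters of the RefSeq table, 6.25% hold TAATCC, 4.84% TAATTA and 6.02% CACGTG. Of the 8 member promoters in that table, that of Impg2 held TAATTA and the other 7 held none of these letters, which says nothing about binding. Kcna1 and Unc5d are not in the table used here. GC content was 46.8% for Impg2 and 56.4% for Gabra5.

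Other genes used to classify human tumors place these members among their peers. Nrl, the rod photoreceptor factor and the other Group 3 classifier gene tested, ranged from 5.80 to 128 CPM in GMYC and from 18.7 to 160 in GTML tumors (log2 fold change 0.50, edgeR adjusted p = 0.491). Of 5 WNT genes 3 were tested and none was called by edgeR, with a median log2 fold change of 0.09, from Gad1 at -0.91 to Tnc at 0.17 with Dkk2 at 0.09, and Wif1 and Emx2 were too low for a test. Of 5 SHH genes 4 were tested and 2 called, with a median of 0.72. Sfrp1, a secreted WNT modulator, was higher in GTML tumors (log2 fold change 2.77, edgeR adjusted p = 0.00632), and Eya1, a transcriptional coactivator, was lower (-5.75, edgeR adjusted p = 0.000113). Eya1 stood at 8.58 to 259 CPM in GMYC and 0.862 to 6.18 in GTML tumors without overlap. Pdlim3 at 2.88 (edgeR adjusted p = 0.0131) and Hhip at -1.33 (edgeR adjusted p = 0.077) did not pass, and Atoh1 was too low for a test. Without GTML 2 Pdlim3 also passed (2.97, edgeR adjusted p = 0.00907), giving 3 called SHH genes.

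Further genes of each human subgroup were given the same test. Of 8 further Group 3 genes 5 were tested and none was called by edgeR with all tumors, and the median log2 fold change was 0.18. The largest was the photoreceptor gene Rcvrn at 4.76 (edgeR adjusted p = 0.0146), with 59.6 CPM in GTML 3 and 7.23 in the next tumor, and it was 3.05 without GTML 3. Without GTML 2, Rcvrn (4.93, edgeR adjusted p = 0.00753) and the photoreceptor chaperone gene Aipl1 (1.53, edgeR adjusted p = 0.00967) were called, while in the fit with all tumors Otx2 at 0.03 and Crx at -0.24 were close to 0. All 5 further Group 4 genes were tested, with a median of 1.34. Barhl1, a homeobox gene of rhombic lip neurons, was called higher in GTML tumors (1.63, edgeR adjusted p = 0.00937), and Prdm6, a gene activated by enhancer hijacking in Group 4, was called lower (-3.07, edgeR adjusted p = 0.00804). Of the 5 further Group 4 genes 4 had an unadjusted p under 0.05 in edgeR, DESeq2 called 3 and voom 1. Of the further Group 3 genes 2 had an unadjusted p under 0.05 in edgeR, DESeq2 called 2 and voom 0, and of the WNT genes 0 had such a p in edgeR and 0 were called by DESeq2 or voom. Over all genes, 37.8% of 21024 had such a p in edgeR. DESeq2 called 1312 higher and 579 lower in GTML tumors among 20950 genes, and voom 418 and 431 among 21024. Barhl1 was also the 1 called gene of the 9 unipolar brush cell genes, which had a median of 0.85 and 7 positive values, and of the 7 neuronal medulloblastoma markers, with a median of 0.03.

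**Figure D4:**
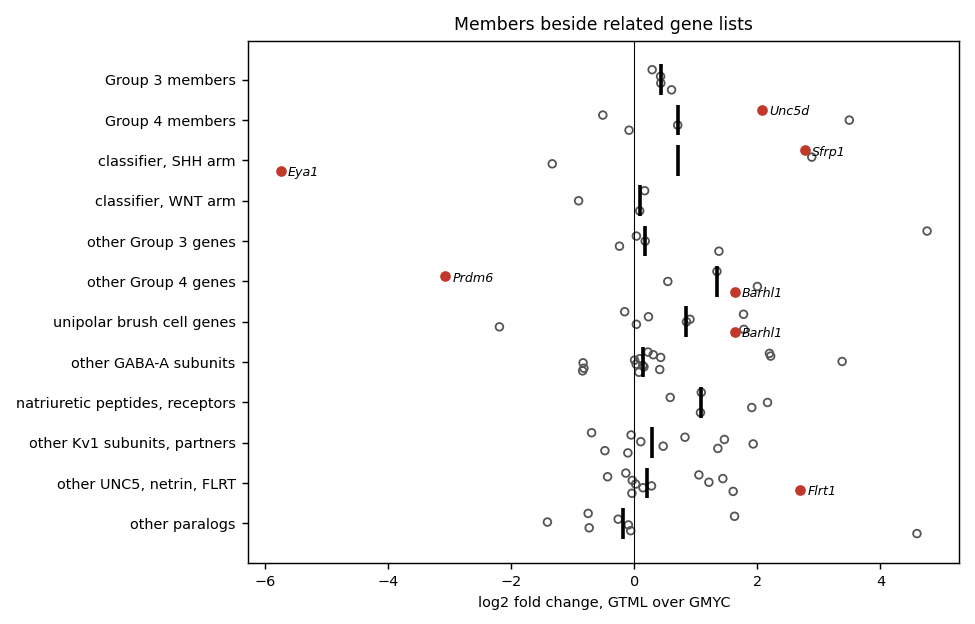
Log2 fold change of GTML over GMYC tumors for each tested gene of the listed gene groups, with filled points for called genes and a bar at each group's median. The Group 3 members lie between 0.29 and 0.60 with no called gene, and Unc5d and Lmx1a set the upper end of the Group 4 members.

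Partners and relatives of the members were mostly not called by edgeR. Of 12 tested netrin and FLRT system genes, partners of Unc5d, Flrt1 was called at 2.70 (edgeR adjusted p = 0.00868) and the median was 0.21. Without GTML 2 the netrin receptor gene Dcc was called as well (1.74, edgeR adjusted p = 0.00346). Of the Npr3 system, 5 of 6 natriuretic peptide and receptor genes were tested and all 5 had positive values, with a median of 1.09 and none called by edgeR with all tumors. The highest of them was Npr2, the receptor for C-type natriuretic peptide, with a mean of 33.0 CPM in GMYC and 70.2 CPM in GTML tumors (log2 fold change 1.09, edgeR adjusted p = 0.0186). The largest fold was Nppc, the C-type peptide itself, at 2.17 (edgeR adjusted p = 0.0146), and Nppc was called without GTML 2 (2.34, edgeR adjusted p = 0.00273). With all tumors, no gene was called among 16 tested GABA-A receptor subunits (median 0.15, largest Gabre at 3.38, edgeR adjusted p = 0.0505), 10 Kv1 channel genes (median 0.29, largest Kcna5 at 1.93, edgeR adjusted p = 0.0519) or 8 paralogs of the members (median -0.18, largest Impg1 at 4.59, edgeR adjusted p = 0.0116). Impg1, the partner of Impg2 in the photoreceptor matrix, ranged from 0 to 0.563 CPM in GMYC and from 0.163 to 27.6 CPM in GTML tumors, the latter in GTML 3. Its log2 value was 3.15 without GTML 3 and 4.78 without GTML 2, where it was called (edgeR adjusted p = 0.0046). An unadjusted p under 0.05 in edgeR was reached by 4 of 16 GABA-A, 4 of 10 Kv1, 3 of 8 paralog and 3 of 5 natriuretic genes. Over all genes the share with such a p was 37.8%. DESeq2 called 1, 2, 1 and 2 genes of these lists in the same order, and voom called 1 natriuretic gene and 0 in the other lists. The DESeq2 and voom counts over all genes are given above.

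Markers of normal cells that a biopsy could hold were given the same test. Neuronal lists had negative medians, -1.24 for 7 granule neuron genes (largest Fat2 at -3.96, edgeR adjusted p = 0.0406), -0.54 for 8 Purkinje cell genes (Calb1 at -2.37, edgeR adjusted p = 0.0617) and -0.41 for 8 mature neuron genes, of which Nefl, a neurofilament, was called lower in GTML tumors (-1.26, edgeR adjusted p = 0.00643). Glial lists had none called with all tumors, with medians of -0.13 for oligodendrocytes (Mog at 1.56, edgeR adjusted p = 0.0104), -0.70 for astrocytes (Aqp4 at -1.22, edgeR adjusted p = 0.0975) and -0.31 for microglia (Tyrobp at -0.84, edgeR adjusted p = 0.0519). The 8 endothelial genes had a median of 0.34 (Kdr at 1.34, edgeR adjusted p = 0.035), 6 choroid plexus genes 0.15 (Enpp2 at -1.85, edgeR adjusted p = 0.0453) and 6 meningeal genes 0.40 (Igf2 at 0.86, edgeR adjusted p = 0.502). Without GTML 2 Mog was called (1.64, edgeR adjusted p = 0.00541). Single tumors carried some of these values, since Fat2 was -0.93 and Calb1 -1.07 without GMYC 1, and Enpp2 was -0.75 without GMYC 3. In the lists with 0 calls in edgeR, an unadjusted p under 0.05 was reached by 5 granule neuron, 3 Purkinje cell, 2 oligodendrocyte, 3 astrocyte, 1 microglia, 2 endothelial, 3 choroid plexus and 0 meningeal genes. Over all genes the share with such a p was 37.8%. DESeq2 called 1 granule neuron, 1 oligodendrocyte and 1 endothelial gene, and voom 1 oligodendrocyte gene, beside the counts over all genes given above. The summed levels overlapped between the models in each of these 9 lists, for example 118 to 456 CPM in GMYC and 119 to 337 in GTML tumors for Purkinje cells. No gene of these lists was at 0 in every tumor, and the part of these cells in the Unc5d and Lmx1a differences was not tested.

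Genes whose levels moved most like each member over the 14 tumors were ranked by Pearson r of log2 CPM, as a description across libraries that share depth, model and GTML 2. For Unc5d they were Ppp1r3f (r = 0.926), Zswim8 (0.925) and Slc4a3 (0.923), and for Lmx1a ENSMUSG00000093055 (0.929) and Tshz3 (0.928). For Impg2 they were Wdfy2 (0.917), Cdhr1 (0.915), a photoreceptor cadherin, and Paxx (0.91), and for Gabra5 Prrt1 (0.933), Ptprg (0.931) and Dennd4b (0.928). For Npr3 they were Mbnl3 (0.923), Mfsd2a (0.897) and Plekho1 (0.889), and for Mab21l2 Scnn1a (0.865), Ezr (0.864) and Prkx (0.805). Kcna1 ranked with Kbtbd11 (0.87), Mob2 (0.82) and Sun2 (0.796), Khdrbs2 with Sema3c (0.898), Dnajc27 (0.886) and Dll1 (0.882), and Rbm24 with Abcd4 (0.914), Map1lc3a (0.851) and Mturn (0.827). Eomes, near detection, ranked with Rasa3 (0.87), ENSMUSG00000090401 (0.852) and Lamp2 (0.849).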

How the data were processed

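The authors deposited whole-number read counts per Ensembl gene for the 14 tumors, not normalized. The submitters' processing notes name STAR 2.4.0, Bowtie2 2.2 and Subread 1.5.2 and the mouse build mm9. Strand and duplicate handling are not given in the sources used here. A second table with 18 columns of cell line counts matched no sample label and was not used. Symbols and exon lengths came from GRCm38 annotation and covered 87.4% of genes. Counts were scaled by TMM, kept where at least 3 tumors passed 1 CPM, and tested with edgeR 4.0.16 (quasi-likelihood, R 4.3.3) without covariates, and a gene was called at a Benjamini-Hochberg adjusted p below 0.01 if its log2 fold change exceeded 1 in size. Limma 3.58.1 (voom) and DESeq2 1.42.0, other scalings and filters, each tumor left out, a small nucleolar RNA term or split at 0.3%, and, chosen after the data were seen, a term for Y-linked counts were the alternatives. Log2 CPM used a prior count of 2. Figures were drawn with matplotlib 3.10.9. The code was tested on simulated data. Replicates of a model differed by more than sampling noise. Count limits cover counting error only.

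The members and gene lists were chosen with earlier results of these data known. Named genes are the members, the oncogenes, the other classifier genes given above and the 3 most alike genes per member. Also named are the called genes of each other list, or its largest fold where none was called. Genes named outside this rule serve as examples. Some results that meet these rules are not reported here.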

Additional observations from a re-analysis of the deposited data

Results flagged for a closer look

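Tumors far from the others of their model, by the ratio of the gap to the model's range (Dixon's test), occurred in 23 of 80 gene and model groups. A rate of 1 in 20 would give about 4, but that rate assumes normally distributed values, which CPM need not be. Some genes were also named for their large fold in these data, so 4 is not a chance rate here. Among the members the flagged tumors were GTML 2 for Npr3 (ratio 0.67), Mab21l2 (0.737) and Eomes (0.687), GMYC 4 for Unc5d (0.709) and GTML 6 for Lmx1a (0.667), in each case the highest of its model. The Lmx1a value of GTML 6 was 12.8 CPM beside 4.59 in the next GTML tumor. Among the other named genes, GMYC 6 was lowest for Myc (0.763), and the rest were highest values. In GMYC tumors these were GMYC 1 for Wif1 (0.888), Fat2 (0.896) and Calb1 (0.753), GMYC 2 for Pdlim3 (0.813), Gabre (1) and Kdr (0.729), GMYC 3 for Enpp2 (0.832), GMYC 4 for Emx2 (0.645), Nppc (0.809) and Flrt1 (0.66), and GMYC 6 for Kcna5 (0.734). In GTML tumors they were GTML 2 for Atoh1 (0.626), GTML 3 for Pdlim3 (0.876), Rcvrn (0.888) and Impg1 (0.889), and GTML 6 for Tnc (0.544) and Gad1 (0.824). GTML 3 therefore carried the highest Rcvrn and Impg1 levels at 59.6 and 27.6 CPM.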

How the results depend on the processing

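Over up to 25 alternatives for each of 36 named genes, 751 values kept direction and side of the threshold, 94 lost the call, 23 gained it and 22 changed sign. Unc5d stayed higher in GTML tumors in all 25 (log2 1.90 to 2.53) and Lmx1a in all 23 that could be run (2.76 to 4.24). GTML 2 belongs to the higher small nucleolar RNA side, so fits within the lower side leave it out. Sign changes were Gabra5 -0.65 within the higher small nucleolar RNA side, Npr3 -0.92 within the lower side and -0.22 with the Y-linked term (-0.72 to 0.65 with 1 tumor left out), Kcna1 0.19 by voom, 0.30 with the replicate block, 0.87 within the higher side and 0.11 with the Y-linked term (-0.32 to 0.50), Rbm24 0.012 by voom and 0.19 within the higher side, Tnc (-0.19 to 0.67), Gad1 1.44 within the lower side, Dkk2 -0.033 with the small nucleolar RNA term and -0.56 within the lower side (-0.10 to 0.36), Fat2 2.38 within the lower side and Igf2 -0.24 within the higher side.

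Genes called higher and lower in GTML tumors were 444 and 232, against 1312 and 579 by DESeq2 (74 genes had no adjusted p), 418 and 431 by voom, 269 and 149 without a filter, 169 and 127 with the small nucleolar RNA term, 0 and 2 within its higher side, 83 and 44 within its lower side, 68 and 15 with the Y-linked term, 2418 and 2041 at an adjusted p under 0.05 with no fold threshold, and 74 to 1038 and 40 to 586 with 1 tumor left out, the lowest without GMYC 3 and the highest without GTML 2. Within the higher side 1355 and 1065 genes had an unadjusted p under 0.05 in edgeR. Members called were 1, against 2 by DESeq2, by its size factors in edgeR and at 0.05, 0 with the replicate block, with the small nucleolar RNA term and within either side, and 0 to 2 with 1 tumor left out. With the Y-linked term the 1 called was Lmx1a. Of the members, 2 had an unadjusted p under 0.05 with the block (26% of all genes) and with the small nucleolar RNA term (31.8%), 1 within the higher side (12.8%) and 4 within the lower side (35.1%). With 1 tumor left out, the calls of Eya1, Sfrp1, Nefl, Prdm6, Flrt1 and Barhl1 held in 14, 7, 6, 3, 3 and 1 of 14 fits. Impg2 exceeded the next member 3.04-fold in RPKM and 5.89-fold in CPM. The replicate numbers did not pair the tumors (1 of 6 pairs correlated above 0.1), and the replicate block left 7 and 3 genes called. The cause of these changes was not tested. Depth limits Eomes and Lmx1a.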
